A study of Mus musculus with 22 samples.

Results

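The genes described here are 8 members of the renin-angiotensin system and of the regulators that switch off its receptor signal: Agt, Ace, Agtr1a, Agtr2, Nr3c2, Rgs2, Rgs4 and Rgs5. They were taken by symbol from the array annotation, as probe sets annotated to exactly 1 of these symbols. That gave 17 probe sets of 45101 on the array, and each of the 8 genes, of 18193 in all, is represented by its brightest probe set, judged on the mean of all arrays. Agt, Agtr1a, Agtr2 and Nr3c2 have 1 such probe set, Ace has 2, Rgs4 has 3, and Rgs2 and Rgs5 have 4 each.

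The study asked what tenascin C (TNC), a matrix glycoprotein made in injured arteries, does in the mouse aorta. It used 22 Affymetrix mouse genome arrays. Cultured smooth muscle cells, dispersed by enzyme from the suprarenal aorta of TNC knockout (KO) mice, gave 14 arrays: 3 without any added factor, 3 with 10 ng/mL tumour necrosis factor alpha (TNF), 4 with 10 µg/mL exogenous TNC, and 4 with both. Every cell array therefore lacks endogenous TNC, and no wild-type (WT) cells were measured. The design text counts 3 independent cultures without TNC and 4 with it, and gives 24 h of TNF, whereas the sample descriptions of the cells carry differing hours that were not used. The titles of the arrays with TNC alone name TNC or TNF, and their treatment label, exogenous TNC, was followed.

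The 8 remaining arrays each hold pooled RNA of male C57BL/6 mice, WT or KO, from either the suprarenal or the infrarenal segment. An untreated pool comes from 5 animals. A treated one, called CaAngII, comes from 8 animals that had 0.5 M CaCl2 applied around the infrarenal aorta and an angiotensin II infusion of 1 µg/min/kg for 1 week. The mice's age is not given in the sources used here. Tnc signal was 1805 to 2699 in the 4 WT pools, 257 to 489 in the 4 KO pools and 66.3 to 144 in the cells. In the cells, the smooth muscle genes Acta2 (15304 to 23322) and Tagln (7351 to 14268) were high, and Myh11 was 27.9 to 407 against 8638 to 18978 in the pools. Endothelial genes were mixed. Emcn (9298 to 14206, against 1111 to 2519 in the pools) and Cdh5 (1629 to 2472, against 676 to 1502) were above every pool. Pecam1 (3097 to 5065) overlapped its pool range (1555 to 3973.5). Kdr (44.5 to 98.1, against 521 to 878 in the pools) and Cldn5 (3.72 to 42.0, against 885 to 1436) were far below their pool levels. Replicate arrays correlated at 0.962 to 0.969, and signals are linear intensities on arrays scaled to a common mean.

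Angiotensinogen, the product of Agt, is cut by renin and then by angiotensin-converting enzyme (Ace) to angiotensin II, which contracts vascular smooth muscle through the type 1 receptor (Agtr1a and Agtr1b in mice) and acts in the opposite sense through the type 2 receptor (Agtr2). Angiotensin II also drives the adrenal gland to release aldosterone, whose receptor is Nr3c2. The type 1 receptor signals mainly through Gq, and RGS proteins speed the return of such G proteins to the resting state. Rgs2 acts with preference on Gq, while Rgs4 and Rgs5 act on Gq and Gi, and Rgs5 is a familiar gene of pericytes and arterial smooth muscle.

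With each factor alone, the largest called changes among the members were those of the 3 regulator genes. The 250 bases before their start sites are shown because Rgs2 and Rgs4, which moved in opposite directions under TNC, hold the same short motif 2 times each. The sequences are RefSeq's on GRCm38.p6, written 5′ to 3′ on the gene's strand, and capitals mark TGACG or its reverse complement, a core of the cyclic AMP response element.
Rgs2, chr1:144004150-144004399, minus strand: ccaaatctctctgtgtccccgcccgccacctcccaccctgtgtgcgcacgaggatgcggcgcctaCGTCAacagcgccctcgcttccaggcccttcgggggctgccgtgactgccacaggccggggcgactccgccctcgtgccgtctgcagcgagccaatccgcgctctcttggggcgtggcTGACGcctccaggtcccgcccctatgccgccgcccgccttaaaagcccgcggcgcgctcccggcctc
Rgs4, chr1:169747643-169747892, minus strand: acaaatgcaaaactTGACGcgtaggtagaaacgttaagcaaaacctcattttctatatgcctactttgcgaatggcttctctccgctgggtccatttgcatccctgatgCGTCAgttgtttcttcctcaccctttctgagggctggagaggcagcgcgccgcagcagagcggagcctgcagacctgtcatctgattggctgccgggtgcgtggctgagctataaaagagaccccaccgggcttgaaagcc
Rgs5, chr1:169655251-169655500, plus strand: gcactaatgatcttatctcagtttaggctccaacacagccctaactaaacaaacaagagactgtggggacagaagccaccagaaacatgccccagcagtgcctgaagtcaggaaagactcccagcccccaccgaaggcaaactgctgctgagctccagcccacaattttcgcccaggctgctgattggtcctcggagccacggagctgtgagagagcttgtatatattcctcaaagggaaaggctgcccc

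In Rgs2 the matches began 67 and 185 bases before the start site, and in Rgs4 141 and 236 bases before it. The Rgs5 window holds no match. Of 32851 promoters of the same length, 17.8% hold at least 1 match on either strand and 3.9% hold at least 2. TATAAA was searched too, on the gene's own strand only: Rgs4 has 1 match, 31 bases before the start, and 7.59% of promoters have at least 1 on that strand. A match describes the letters only. Rgs5 and Rgs4 are neighbouring protein-coding genes on chromosome 1.

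Rgs2 was the member that rose with TNC and fell with TNF. Its signal was 585, 557 and 561 without factors, 185, 276 and 209.5 with TNF, 1330.5, 1169, 1312 and 1418 with TNC, and 1304, 1449, 1274 and 1033 with both. The TNF arrays all lay below the untreated ones, the arrays with TNC all lay above them, and the arrays with TNC alone and with both factors overlapped. Rgs2 therefore fell with TNF in cells without TNC, from 568 ± 15.2 to 223 ± 47.3 (SD, n = 3 each; log2 change -1.37, SE 0.15, adjusted p = 2.35e-05, limma). With TNC present the TNF change was -0.05 (SE 0.13, adjusted p = 0.819). TNC raised Rgs2 by 1.20 without TNF (SE 0.14, adjusted p = 5.95e-05) and by 2.51 with it (SE 0.14, adjusted p = 3.85e-07). The difference between the TNF effects with and without TNC was tested directly as an interaction and was 1.31 (SE 0.20, adjusted p = 7.61e-04).

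Rgs2 was the only member called for the interaction, 1 of 7 tested (1 higher), where 18.8% of all 15534 tested genes were called, 9.81% higher and 9.01% lower. A gene counts as called throughout at an adjusted p (Benjamini-Hochberg over all tested genes) under 0.05. The other bright probe sets of Rgs2 gave interactions of 1.28 (SE 0.18, adjusted p = 5.87e-04) and 1.50 (SE 0.23, adjusted p = 0.00121). The remaining, dim one was not called in any comparison, with an interaction of -0.27 (SE 0.59, adjusted p = 0.831).

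**Figure D1:**
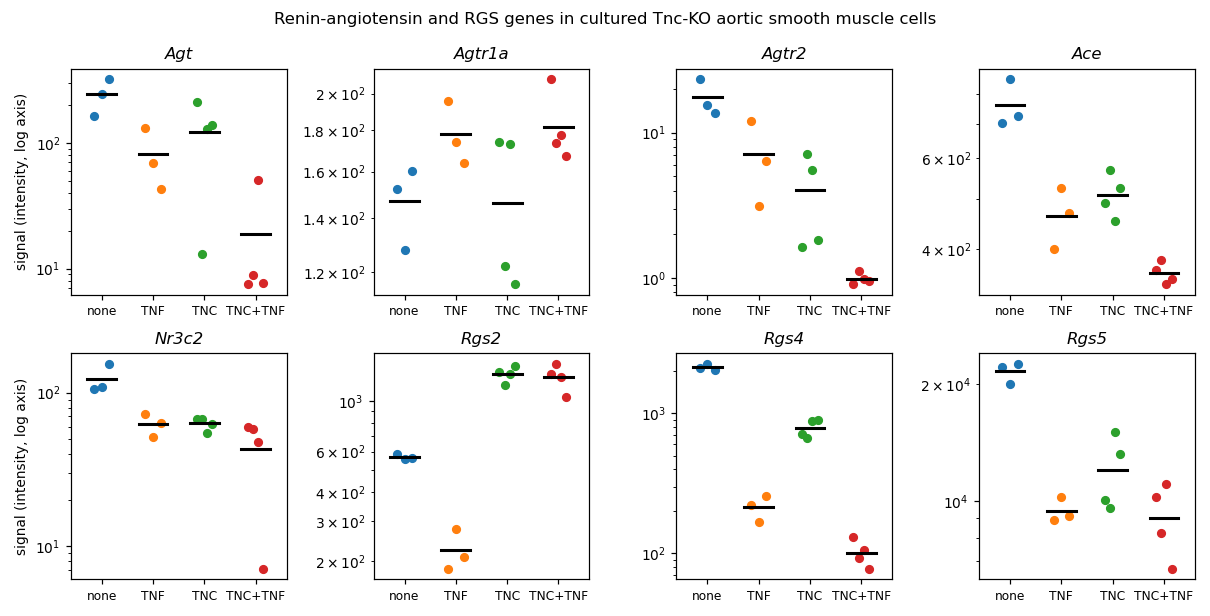
Signal of the 8 genes on each of the 14 cell arrays, on a log axis, by treatment (3, 3, 4 and 4 arrays); points are arrays and black lines the group means. Rgs2 is lowest with TNF alone (185 to 276) and highest with TNC, whether or not TNF is present (1033 to 1449), while Rgs4 falls with each factor and is lowest with both (77.2 to 131).

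Rgs4 fell with each factor. Its signal was 2124, 2262 and 2051 without factors, 223, 166 and 257 with TNF, 713, 669.5, 889.6 and 890.0 with TNC, and 131, 92.4, 105 and 77.2 with both. The 4 groups did not overlap: untreated cells were highest, then TNC, then TNF, then both. The TNF change of Rgs4 was -3.34 without TNC (SE 0.20, adjusted p = 2.04e-07) and -2.98 with it (SE 0.17, adjusted p = 6.02e-07). TNC changed it by -1.45 without TNF (SE 0.19, adjusted p = 1.44e-04) and by -1.09 with TNF (SE 0.19, adjusted p = 0.00136). Both factors together took it from 2146 ± 107 (SD, n = 3) to 101 ± 22.7 (SD, n = 4), a change of -4.43 (SE 0.19, adjusted p = 8.19e-09). The interaction was 0.36 (SE 0.27, adjusted p = 0.411). The other probe sets of Rgs4 fell too, by 3.25 and 2.72 on the log2 scale with TNF alone, and for 1 of them the interaction was called (0.85, SE 0.25, adjusted p = 0.0478).

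Rgs5 was highest in untreated cells. Its signal was 22197, 19979 and 22594 there, 8899, 10196 and 9122 with TNF, 10036, 9598, 15057 and 13235 with TNC, and 10210, 8272, 11053 and 6653 with both. No treated array reached an untreated one, and the 3 treated groups overlapped. The changes were -1.20 with TNF (SE 0.20, adjusted p = 6.63e-04), -0.87 with TNC (SE 0.19, adjusted p = 0.00437) and -1.28 with both (SE 0.19, adjusted p = 1.89e-04). Where the other factor was already present, neither TNF (-0.41, SE 0.17, adjusted p = 0.126) nor TNC (-0.08, SE 0.19, adjusted p = 0.796) gave a called change. The interaction was 0.79 (SE 0.27, adjusted p = 0.0611), which did not pass, but it was called under 5 alternative settings given in the closing section, without replicate 3 of the TNC cells (0.91, adjusted p = 0.0311) and without replicate 4 of the cells with both factors (0.93, adjusted p = 0.0202).

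The remaining probe sets of Rgs5 spanned a wider range. The chosen one was among the brightest on the array, at 20.0 to 83.7% of the highest signal of each array. In a fit over all 29370 tested probe sets with 1 symbol, the other 3 changed by -2.52 (SE 0.31), -2.15 (SE 0.33) and -2.35 (SE 0.41) with TNF, against -1.20 for the chosen one. Their changes with TNC were -2.06 (SE 0.29), -1.96 (SE 0.31) and -1.89 (SE 0.38), all called. Their interactions were 1.74 (SE 0.41, adjusted p = 0.0155), 1.64 (SE 0.44, adjusted p = 0.0305) and 1.44 (SE 0.54, adjusted p = 0.110), so 2 of the 3 were called. Whether signal near the top of the range narrows the chosen probe set's changes was not tested.

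Smooth muscle markers moved with these genes. Of 10 listed, 8 fell with TNF alone, 8 with TNC alone and 9 with both, and none rose. Of all tested genes, 20.3%, 15.7% and 22.5% fell in these comparisons, and 14.3%, 16.1% and 20.7% rose. The summed signal of the 10 markers was 42229 to 44198 without factors, 24593 to 26609 with TNF, 33732 to 36512 with TNC and 24721 to 27792 with both. Most of that sum was Acta2 (15304 to 23322 over the cell arrays) and Tagln (7351 to 14268). Dimmer markers spanned a wider range, such as Cnn1 (30.5 to 1572) and Myh11 (27.9 to 407). Rgs2 rose with TNC alone, where none of these markers rose. Of 9 tested pericyte markers, 5 fell with TNF alone and 4 fell and 2 rose with TNC alone. The part of these markers in the changes of Rgs4 and Rgs5 was not tested.

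Ace was lower with every factor. Its signal was 702, 856 and 724 without factors, 399, 524 and 469 with TNF, 490.2, 568, 453 and 526 with TNC, and 364, 381, 341 and 348 with both. Untreated arrays were highest and arrays with both factors lowest, with no overlap of either with the other groups, while TNF alone and TNC alone overlapped. The changes were -0.72 with TNF (SE 0.11, adjusted p = 4.67e-04), -0.58 with TNC (SE 0.11, adjusted p = 0.00170) and -1.08 with both (SE 0.11, adjusted p = 8.49e-06). TNF added to TNC changed Ace by -0.50 (SE 0.10, adjusted p = 0.00387), and TNC added to TNF by -0.36 (SE 0.11, adjusted p = 0.0260). This last call was lost with the arrays centred on their medians (-0.27, adjusted p = 0.136), with only the groups compared in the fit (adjusted p = 0.0563), and without replicate 2 or 3 of the TNF cells (adjusted p = 0.116 and 0.0769) or replicate 3 or 4 of the cells with both factors (0.0559 and 0.0557). The second probe set of Ace fell less with TNF (-0.36, SE 0.11, adjusted p = 0.0312), was not called for TNF added to TNC (-0.29, SE 0.10, adjusted p = 0.0612), and gave -0.54 with TNC (SE 0.10, adjusted p = 0.00276).

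Ace is made by endothelial cells as well as by activated smooth muscle. The 10 endothelial markers summed to 21934 to 24695 without factors, 20821 to 21819 with TNF, 24050 to 26184 with TNC and 19553 to 21457 with both. Emcn (9298 to 14206) was the largest part of these sums. With TNC alone 5 of the 10 rose and 0 fell (16.1% of all tested genes rose and 15.7% fell). With TNF alone 3 rose and 2 fell (14.3% and 20.3%). With TNF in the presence of TNC 0 rose and 6 fell (9.6% and 12.5%). With TNC in the presence of TNF 1 rose and 2 fell (16.3% and 11.9%), and with both factors 1 rose and 3 fell (20.7% and 22.5%). The chosen probe set of Ace was called lower in each of these comparisons. The part of endothelial cells in the Ace signal was not tested.

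Agt varied widely between replicates. Its signal was 162, 246 and 323 without factors, 131, 69.1 and 42.9 with TNF, 209, 13.1, 129 and 139.6 with TNC, and 7.50, 8.96, 51.1 and 7.67 with both. The untreated arrays lay above all TNF arrays and all arrays with both factors, while the arrays with TNC alone overlapped every other group. The change with both factors was -4.20 (SE 0.94, adjusted p = 0.00353), and on the scale of log2(value + 32) it was -2.48. The TNF change in the presence of TNC was -2.72 (SE 0.87, adjusted p = 0.0452). That call was lost in 6 of 10 alternative settings and in 12 of 14 fits without 1 array, where adjusted p reached 0.125. The changes with TNF alone (-1.68, SE 1.01, adjusted p = 0.234) and TNC alone (-1.48, SE 0.94, adjusted p = 0.268) were not called.

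Fat cells also make angiotensinogen. In the cells the 8 adipocyte markers summed to 5321 to 7281 without factors, 1459 to 1692 with TNF, 6922 to 8493 with TNC and 1976 to 2454 with both. Nearly all of that sum was Fabp4 (1307 to 8420), which endothelial cells and macrophages also express. On each cell array 6 or 7 of the 8 were below the array median. Adipoq, made by fat cells, was 16.2 to 234 in the cells against 13321 to 24721 in the pools, Elovl3 25.6 to 91.6, and the other 5 did not pass 44.7. Their part in the Agt change was not tested.

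Agtr1a, the type 1 receptor gene, changed little. Its signal was 152, 128 and 160.5 without factors, 196, 174 and 164 with TNF, 174, 122, 173 and 116 with TNC, and 209, 174, 177 and 167 with both. The 3 TNF arrays and the 4 arrays with both factors were above all untreated arrays by small margins, and the TNC arrays straddled them. No comparison was called, the nearest being TNF with TNC (0.33, SE 0.15, adjusted p = 0.134) and both factors against none (0.31, SE 0.16, adjusted p = 0.141). The latter was called with quantile normalization (0.46, adjusted p = 0.0379) and with the arrays centred on their medians (0.52, adjusted p = 0.0350). Agtr2 reached the 30th percentile on only 1 of 14 cell arrays and was not tested there. It was listed at 23.5, 15.5 and 13.6 without factors and at 0.906 to 1.12 with both, all in the dimmest part of the arrays.

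Nr3c2, the mineralocorticoid receptor gene, was highest in untreated cells. Its signal was 106, 108 and 154 there, 72.4, 51.6 and 63.5 with TNF, 67.6, 67.7, 54.4 and 62.8 with TNC, and 59.9, 57.8, 47.4 and 7.06 with both. Every treated array lay below every untreated one, and the last array with both factors stood far below the rest. The only called change was for both factors against none (-1.88, SE 0.60, adjusted p = 0.0253), and it was lost without any 1 of the 3 untreated arrays (adjusted p = 0.0508 to 0.0845) and with only the groups compared in the fit (0.116). Without the array at 7.06, the change with both was -1.14 (adjusted p = 3.96e-04), and the changes with TNF alone (-0.97, adjusted p = 0.00140) and TNC alone (-0.94, adjusted p = 0.00138) were called as well. With all arrays in the fit these were the same sizes but not called (adjusted p = 0.290 and 0.271), and with only the groups compared in the fit both were called (0.0211 and 0.00814). On the scale of log2(value + 32) the TNC change was called too (-0.69, adjusted p = 0.0443).

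**Figure D2:**
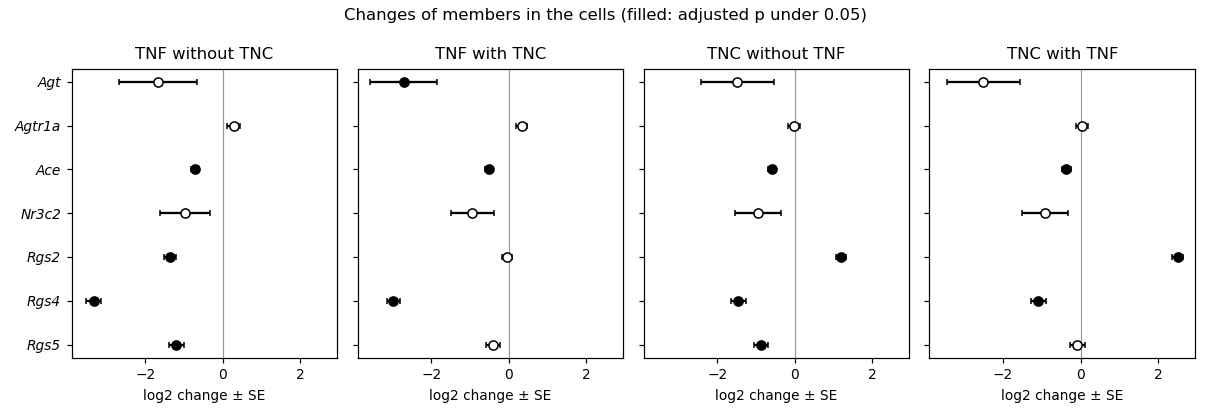
Log2 change of the 7 members tested in the cells, with SE bars, in 4 comparisons; filled points have an adjusted p under 0.05. Rgs2 is the only member to the right of 0 with a filled point, with TNC without TNF (1.20) and with TNC in the presence of TNF (2.51), and Rgs4 has the lowest values with TNF (-3.34 and -2.98).

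Counted over comparisons, 4 of 7 tested members were called with TNF alone (0 higher, 4 lower), where 34.6% of all genes were called, 14.3% higher and 20.3% lower, and 3 of 7 with TNF in the presence of TNC (0 higher, 3 lower), against 22.1% of all genes, 9.6% higher and 12.5% lower. With TNC alone 4 of 7 were called (1 higher, 3 lower), against 31.8%, 16.1% higher and 15.7% lower, and with TNC in the presence of TNF 3 of 7 (1 higher, 2 lower), against 28.2%, 16.3% higher and 11.9% lower. Both factors against none gave 6 of 7 (1 higher, 5 lower), against 43.3%, 20.7% higher and 22.5% lower. The median change of the 7 members was -1.20, -0.50, -0.87, -0.36 and -1.28 in that order, against -0.06, -0.01, -0.03, 0.00 and -0.06 over all tested genes. The comparisons share groups of arrays, the untreated ones among them, so these counts are not independent of each other.

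In the aorta there was 1 pool per condition, so each comparison is a ratio of 2 arrays with no error and no test. Ratios were taken in 4 matched pairs for each factor, which share pools, and fewer cells of a type and less RNA per cell cannot be told apart in such tissue. A member counts here if it reached the array median in at least 1 pool, which Agtr2 (14.9 to 50.6) did not.

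Agtr1a was lower in the infrarenal than in the suprarenal aorta in every pair. Its suprarenal signal was 1984 (WT) and 2944.5 (KO) untreated and 2515 (WT) and 2066 (KO) under CaAngII. Its infrarenal signal was 440.5 and 681 untreated and 383 and 391 under CaAngII. The highest infrarenal pool was far below the lowest suprarenal one. The log2 ratios were -2.17 and -2.11 untreated and -2.71 and -2.40 under CaAngII, for WT and KO in turn, all past 2-fold. Over all 12684 genes, 4.46% differed at least 2-fold in the same direction in all 4 pairs. CaAngII against untreated gave Agtr1a ratios of 0.34 and -0.51 suprarenal and -0.20 and -0.80 infrarenal.

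Rgs4 had the same segment order. Its suprarenal signal was 2991 and 4058 untreated and 3247 and 3221 under CaAngII, and its infrarenal signal was 1503 and 1372 untreated and 602 and 685 under CaAngII, for WT and KO. No infrarenal pool reached a suprarenal one. The infrarenal to suprarenal ratios were -0.99, -1.56, -2.43 and -2.23, with 3 of 4 past 2-fold. With the mean of all probe sets the untreated KO ratio of Rgs4 was -0.61, which is not. CaAngII went with lower Rgs4 in the infrarenal pools (-1.32 WT and -1.002 KO) and not in the same way in the suprarenal ones (0.12 and -0.33). The KO infrarenal ratio was -0.88 with the arrays centred on their medians. Of its other probe sets, the dimmest went against the segment order in the untreated KO pair (0.45).

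Markers of sympathetic neurons and chromaffin cells moved with Agtr1a and Rgs4 between the segments. All 9 on the array were at least 2-fold lower in the infrarenal pools in all 4 pairs, Snap25 from 9936 to 14110 down to 878 to 2138, and Th from 6514 to 9047 down to 599 to 1175. Their summed signal was 62860 to 81629 in the suprarenal pools, 7902 to 16955 in the infrarenal pools and 276 to 420 in the cells. In the cells Dbh was 80.6 to 202, above the array medians, and none of the other 8 passed 83.2. There Agtr1a was 116 to 209 and Rgs4 77.2 to 2262, which does not show which cells carry either RNA in the pools. The part of nerve tissue in the segment ratios of Agtr1a and Rgs4 was not tested.

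**Figure D3:**
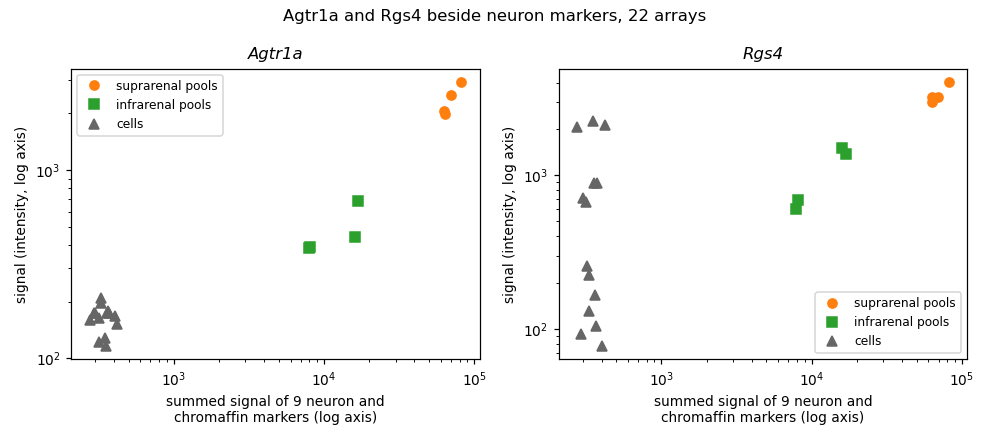
Signal of Agtr1a (left) and Rgs4 (right) against the summed signal of 9 neuron and chromaffin markers on each of the 22 arrays, both axes logarithmic. Suprarenal pools lie at 62860 to 81629 on the marker axis and infrarenal pools at 7902 to 16955. The cells lie at 276 to 420, with Agtr1a from 116 to 209 and Rgs4 from 77.2 to 2262.

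Rgs5 ran the other way between the segments. The suprarenal signal was 20267 and 20197 untreated and 18109 and 18893 under CaAngII, and the infrarenal signal was 31719 and 30227 untreated and 19587 and 21758 under CaAngII. The untreated infrarenal pools stood apart from the other 6. Infrarenal to suprarenal ratios were 0.65 and 0.58 untreated and 0.11 and 0.20 under CaAngII. Rgs5, Agtr1a and Rgs4 were thus the 3 of 7 members with a shared sign in all 4 segment pairs (1 higher, 2 lower), against 44.2% of all genes, 21% higher and 23.1% lower. Summed smooth muscle markers moved with Rgs5 between the untreated segments, at 118643 (WT) and 116269 (KO) infrarenal against 93245 and 83619 suprarenal. Under CaAngII they did not, at 63757 and 71559 against 81651 and 74397. The untreated sums of 10 pericyte markers were 25471 and 22612 against 18008 and 18063, and of 10 endothelial markers 22871 and 20789 against 11840 and 9930. In all 4 pairs, 1 of 10 smooth muscle, 5 of 10 pericyte, 8 of 10 endothelial and 8 of 8 fibroblast markers were higher infrarenally. Their part in the Rgs5 ratios was not tested. CaAngII ratios of the chosen probe set were below 0 in all 4 pairs, -0.16 and -0.10 suprarenal and -0.70 and -0.47 infrarenal. The other probe sets had wider untreated infrarenal to suprarenal ratios, 1.52 to 1.89 in WT and 1.74 to 3.44 in KO. Their infrarenal CaAngII ratios were wider too, -1.27 to -2.02 in WT and -1.61 to -3.98 in KO. In the WT suprarenal pair, 1 of them went the other way under CaAngII (0.22).

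**Figure D4:**
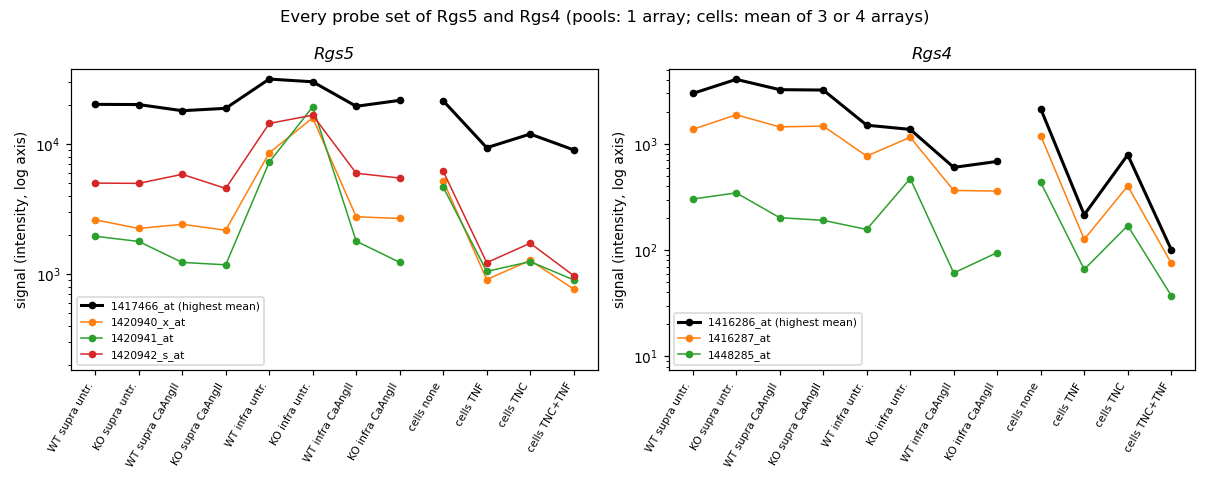
Signal of every probe set of Rgs5 (left, 4 probe sets) and Rgs4 (right, 3 probe sets) on a log axis, in the 8 pools (1 array each) and the 4 cell treatments (mean of 3 or 4 arrays). The Rgs5 probe sets peak together in the untreated infrarenal pools and the untreated cells, the brightest with the flattest profile (6653 to 31719 over single arrays), and the Rgs4 probe sets drop together with each added factor.

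Nr3c2 was lower under CaAngII in all 4 pairs. Its signal was 272 and 298 in the untreated suprarenal pools, 253 and 219.8 in the treated ones, 384 and 327 in the untreated infrarenal pools, and 175 and 195 in the treated ones. All 4 untreated pools were above all 4 treated ones. The ratios were -0.10 and -0.44 suprarenal and -1.13 and -0.74 infrarenal, with 1 past 2-fold. On the chosen probe sets, Nr3c2 and Rgs5 were the 2 of 7 members with the same sign in all 4 CaAngII pairs, both lower. Of all genes, 31.4% had a shared sign and 15% were lower in all 4.

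Cell type markers moved with CaAngII too. Of 10 smooth muscle markers 9 were lower in all 4 pairs, and their summed infrarenal signal was 118643 (WT) and 116269 (KO) untreated against 63757 and 71559 treated. Of 10 macrophage markers 9 were higher in all 4 pairs, with summed infrarenal signals of 25131 and 20846 against 76195 and 79666. Of 8 adipocyte markers 6 were lower in all 4 pairs. The 9 neuron and chromaffin markers summed to 15966 (WT) and 16955 (KO) in untreated infrarenal pools against 7902 and 8098 in treated ones. In the suprarenal pools their sums were 63784 and 81629 untreated against 69624 and 62860 treated. The part of all these markers in the CaAngII ratios of Nr3c2, Rgs4 and Rgs5 was not tested.

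Agt was dimmest in the untreated WT suprarenal pool. Its signal was 25.9 (WT) and 65.4 (KO) in untreated suprarenal aorta and 211 and 155 after CaAngII. In the infrarenal aorta it was 287 and 188 untreated and 179.5 and 223 after CaAngII. The CaAngII ratios were 3.02 and 1.24 suprarenal, both past 2-fold, and -0.67 and 0.25 infrarenal. On the scale of log2(value + 32) the suprarenal ratios were 2.07 and 0.94, the second no longer past 2-fold. The untreated WT suprarenal pool also had the highest summed signal of 8 skeletal muscle markers, 57503 against 823 to 15479 in the other pools, and of the 8 adipocyte markers, 105094 against 49034 to 94783. The 6 lymphocyte markers were high in both untreated suprarenal pools, with sums of 3127 (WT) and 4033 (KO) against 511 and 553 under CaAngII. In each of these pairs 5 of 6 were at least 2-fold lower (2.78% and 1.71% of all genes were). In the infrarenal pools they ran the other way, at 799 (WT) and 814 (KO) untreated against 2358 and 1583 under CaAngII, while Agt fell in WT and rose in KO. The part of these cells in the Agt ratios was not tested.

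Ace and Rgs2 differed less than 2-fold between pools on their chosen probe sets. Ace was 388 and 361 in untreated suprarenal aorta, 580 and 485 after CaAngII, 633 and 565 in untreated infrarenal aorta, and 463 and 537 after CaAngII. On the chosen probe set no Ace ratio for any factor reached 2-fold, and the widest was 0.71, infrarenal against suprarenal in untreated WT. The second probe set gave 1.02 there. Rgs2 was 3468 and 3819, 3942 and 3842, 2888 and 4270, and 2789 and 2984 in the same order. The widest ratio of the chosen Rgs2 probe set was 0.56, KO against WT in the untreated infrarenal aorta. Among the others, a bright one reached -0.77 (segment, WT under CaAngII), and the dim one (56.2 to 145 in the pools) ranged from -1.16 to 1.20. In all, 3 of 7 members passed 2-fold in at least 1 CaAngII pair (Agt, Nr3c2 and Rgs4; 25.1% of all genes did) and 3 of 7 in at least 1 segment pair (Agt, Agtr1a and Rgs4; 29% of all genes did).

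Between KO and WT pools most ratios of the members were small on the chosen probe sets. Agt in the untreated suprarenal aorta was the 1 member past 2-fold in any pair (1.34), where 7.81% of all genes passed, and its other genotype ratios were -0.61, -0.44 and 0.32. On the scale of log2(value + 32) its highest ratio was 0.75. The widest ratio of the remaining 6 members was 0.63, for Agtr1a in the untreated infrarenal aorta, and no member that reached the array median kept its sign in all 4 pairs (11.7% of all genes did). Nr3c2 ratios ran from -0.23 to 0.15. The chosen Rgs5 probe set ran from -0.07 to 0.15, but in the untreated infrarenal pair the others gave 0.89, 1.42 and 0.21, and under CaAngII in that segment -0.04, -0.54 and -0.12. The dimmest Rgs4 probe set gave 1.59 in the untreated infrarenal pair. That KO pool, in which Agtr1a (681) and Rgs2 (4270) had their highest infrarenal signals, also stood apart in 8 adrenal cortex markers, with a sum of 5882 against 491 in its WT partner. The WT suprarenal CaAngII pool had 3094, and the other pools 380 to 833. The part of adrenal tissue in these ratios was not tested.

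**Figure D5:**
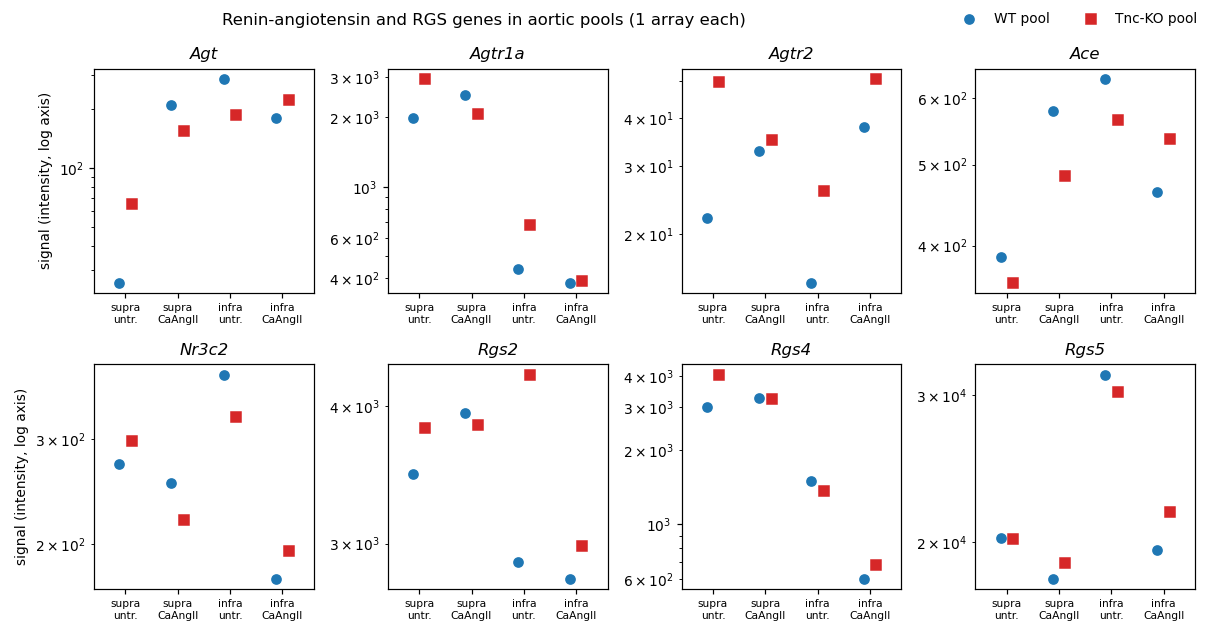
Signal of the 8 genes in the 8 aortic pools, 1 array each, on a log axis; blue circles are WT and red squares TNC-KO pools, grouped by segment and treatment. Agtr1a and Rgs4 are higher in all suprarenal pools (1984 to 2944.5 and 2991 to 4058) than in all infrarenal pools (383 to 681 and 602 to 1503), and Rgs5 is highest in the untreated infrarenal pools (31719 and 30227).

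Of 20 other renin-angiotensin genes listed, 16 were on the array under their symbol alone and 12 were tested in the cells. With TNF alone 3 rose and 1 fell, where 14.3% of all tested genes rose and 20.3% fell. With TNC alone 4 rose and 1 fell, against 16.1% and 15.7%. With both factors 6 rose and 2 fell, against 20.7% and 22.5% (median change 0.15, against -0.06 over all tested genes). Mme (neprilysin), which makes angiotensin 1-7 and degrades several peptides, rose in every comparison but the interaction, by 1.33 with TNF (SE 0.19), by 1.15 with TNC (SE 0.18) and by 2.31 with both (SE 0.18, adjusted p = 1.30e-06). Enpep, the aminopeptidase that trims angiotensin II, fell with TNF (-2.24, SE 0.30, adjusted p = 1.35e-04) and not detectably so when TNC was present (-0.33, SE 0.26, adjusted p = 0.431), and its interaction was called (1.91, SE 0.40, adjusted p = 0.00647). Anpep, the next aminopeptidase of that path, rose by 2.37 with both factors (SE 0.25) from a dim 7.51 ± 2.15 (SD, n = 3). Its untreated signals were below the 30th percentile of their arrays (22.1 to 23.1). Anpep thus passed the filter only through treated arrays, which favours a rise. Ctsa rose by 0.56 with TNC, and Atp6ap2, the prorenin receptor gene, by 0.31 with both factors.

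Agtr1b, the second type 1 receptor gene, was dim in the cells (29.0 ± 6.41 without factors, SD, n = 3) and had a called change only with both factors (-3.56, SE 0.94, adjusted p = 0.00912). That change took its mean log2 signal below the 30th percentile of the arrays with both factors (18.1 to 20.1), so its size is uncertain. In the aorta it ran opposite to Agtr1a between the segments: 99.7 (WT) and 132 (KO) suprarenal against 759 and 738 infrarenal without treatment, and 109.8 and 78.5 against 219 and 192 under CaAngII. The infrarenal to suprarenal ratios of Agtr1b were 2.93, 2.49, 1.00 and 1.29. CaAngII ratios were -1.79 and -1.95 in the infrarenal pools. Agtr1a and Agtr1b are close paralogs, and cross-hybridization between their probe sets was not tested. Agtrap, which binds the type 1 receptor, had no called change, and Mas1, the angiotensin 1-7 receptor gene, was too dim in the cells to test. Ren1 was not analysed here.

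On the mineralocorticoid side, Nr3c1, the related glucocorticoid receptor gene, had no called change (-0.14 to 0.20 over the 6 comparisons). Of 13 tested genes of that axis, 3 rose and 3 fell with TNC alone, where 16.1% of all tested genes rose and 15.7% fell. Sgk1, an early target of both receptors, rose by 0.86 with TNC (SE 0.09, adjusted p = 4.05e-05), and Nedd4l, which Sgk1 restrains, by 0.91 (SE 0.10). Tsc22d3, a glucocorticoid target, changed by -0.88 (SE 0.09, adjusted p = 1.97e-05), and Atp1b1, a sodium pump subunit, by -1.14 (SE 0.13, adjusted p = 4.39e-05). Hsd11b1, which regenerates active glucocorticoid, rose by 0.65 with TNC (SE 0.09) and changed by -0.38 with TNF (SE 0.10).

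Of 13 other RGS genes tested, 3 rose and 2 fell with TNF alone, where 14.3% of all tested genes rose and 20.3% fell. With TNC alone 3 rose and 1 fell, where 16.1% of all tested genes rose and 15.7% fell. Rgs16, which acts on Gi and Gq, rose by 2.56 with TNF (SE 0.31, adjusted p = 5.43e-05) and by 2.94 with TNC (SE 0.29, adjusted p = 1.78e-05), and its interaction was -3.49 (SE 0.41, adjusted p = 1.32e-04), opposite in sign to that of Rgs2. In the aorta Rgs16 was 28.0 (WT) and 50.8 (KO) in untreated infrarenal pools against 450.3 and 696 under CaAngII, ratios of 4.01 and 3.78. Rgs19 rose by 0.51 with TNF (SE 0.06), Rgs12 by 0.43 (SE 0.10), and Rgs11 fell by 0.49 (SE 0.14, adjusted p = 0.0191), while Rgs3 rose by 0.49 with TNC (SE 0.10).

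Among 30 tested G protein and effector genes, 8 rose and 9 fell with TNF alone, where 14.3% of all tested genes rose and 20.3% fell. Their median was -0.03 against -0.06 over all genes. Gna13 rose by 0.86 (SE 0.05, adjusted p = 1.14e-07). Plcb1, a phospholipase that Gq activates, fell by 1.14 (SE 0.07, adjusted p = 3.36e-07), and its interaction was 0.89 (SE 0.10, adjusted p = 8.10e-05). Plcb4, another such phospholipase, changed by -0.62 with TNF (SE 0.09) and by 0.68 with TNC in the presence of TNF (SE 0.08, adjusted p = 1.26e-04). Prkca, a protein kinase C, fell by 0.61 with both factors (SE 0.08), and Arrb2, the arrestin that uncouples the receptor, rose by 1.06 (SE 0.10).

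The genes most like each member were ranked by Pearson correlation of log2 signal, as a description only. Over the 14 cell arrays, Rgs4 was most like Dpysl3 (0.989) and Pdlim3 (0.988), Rgs2 like Aldh3a1 (0.976) and Rnf144a (0.975), Rgs5 like Clasp2 (0.968), and Ace like Hey2 (0.967) and Prss35 (0.960). These arrays share the 4 treatments. Over the 8 pools, which share the segment split, Agtr1a was most like Tmem169 (0.999), Add2 (0.999) and Brinp1 (0.999), Rgs4 like Dmtn (0.999), Cdkl2 (0.997) and Dner (0.997), and Rgs5 like Pi15 (0.987). Agtr1a in the cells had no gene above 0.833.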

How the data were processed

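RNA was measured in 14 cell arrays and 8 aortic pools. The deposited values are linear intensity, 1 per probe set, made with Affymetrix Expression Console per the submitters' processing notes; the algorithm and version behind it are not stated there. Every array has a mean of 500.0 over the middle 96% of probe sets, so small changes depend on that scaling. Values were used as log2 without a pseudocount. The array annotation gave 34945 probe sets 1 symbol, 932 several and 9160 none; 64 were controls. In the cells, genes reaching the 30th percentile of 3 or more arrays were tested: 15534, with Agtr2 left out. A single limma fit (version 3.58.1, R 4.3.3, 10 residual degrees of freedom) held all 4 groups, for 6 two-sided comparisons. No scan date or batch was given in the sources used here. The code was tested on simulated data.

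Members and gene lists were chosen with earlier results of these data known. List genes named are those with the lowest adjusted p in the cells or at least 2-fold in all 4 pairs of pools, up to 5 a list, plus Agtr1b, Mas1, Agtrap, Nr3c1 and Ren1; genes in likeness are the top of each ranking. Single cell type markers shown with values were chosen after these were seen. The number of arrays limits the precision.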

Additional observations from a re-analysis of the deposited data

Results flagged for a closer look

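In cells with both factors, 1 Agt signal of 51.1 lay apart from 7.50, 7.67 and 8.96, and 1 Nr3c2 signal of 7.06 lay apart from 47.4, 57.8 and 59.9. On the log2 scale, the gap to the nearest array was 0.907 and 0.891 of the group's range. The nominal rate of such flags by chance is about 1 group in 20, which was not computed from these data. The Agt array is replicate 3 and the Nr3c2 array replicate 4, so they are different arrays.

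The TNF effect on Rgs2 differed between cells with and without TNC by 1.31 (limma interaction, SE 0.20, adjusted p = 7.61e-04). In the aorta, the CaAngII ratios of Ace were 0.58 and 0.43 in the suprarenal pools and -0.45 and -0.073 in the infrarenal pools. Those of Rgs2 were 0.18 and 0.0089 suprarenal and -0.051 and -0.52 infrarenal. Both differences between segments are of single pools and were not tested.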

How the results depend on the processing

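Of the 42 changes of members in the cells, those of Rgs2, Rgs4, Rgs5 and Ace named as called kept their direction and their call under quantile normalization, centring, log2(value + 32), both other filters, both other choices of probe set, other variance settings, fits of only the groups compared, and the replicate block, except Ace for TNC in the presence of TNF. Members called for the interaction numbered 2 in place of 1 under quantile normalization, log2(value + 32), the filter at the 50th percentile, the mean of all probe sets, and trended robust variances, Rgs5 being the added one (adjusted p = 0.0400, 0.0451, 0.0387, 0.0394 and 0.0387). Without 1 array the called members numbered 1 to 3 for the interaction, 4 to 5 for TNF alone, 2 to 3 for TNF with TNC, 4 to 5 for TNC alone, 2 to 4 for TNC with TNF and 5 to 6 for both factors. Members 2-fold between KO and WT numbered 0 with log2(value + 32) and 2 with no filter, in place of 1. Arrays of different groups with the same replicate number did not correlate (19 pairs, r -0.02 to 0.06). The labels used here do not say which arrays, if any, share a culture. With the replicate block, both factors changed Agtr1a by 0.38 (adjusted p = 0.0280) and Nr3c2 by -1.51 (adjusted p = 0.0516). The only signs that turned were of uncalled changes. For Agtr1a with TNC alone they were 0.065 under quantile normalization, 0.15 centred and 0.047 with the replicate block; for its interaction -0.020 and -0.022 under the first pair. For the Nr3c2 interaction they were -0.0049 and -0.048 likewise, and for Rgs5 with TNC in the presence of TNF 0.016 centred. Without 1 array, Agtr1a ranged from -0.12 to 0.079 with TNC alone, from -0.039 to 0.10 with TNC in the presence of TNF and from -0.050 to 0.15 for the interaction; the Nr3c2 interaction ranged from -0.26 to 0.77, Rgs2 with TNF in the presence of TNC from -0.12 to 0.039, and Rgs5 with TNC in the presence of TNF from -0.19 to 0.058. Centring moved the median of all genes by 0.11, 0.04, 0.17, 0.10, 0.21 and -0.08 in the 6 comparisons (TNF alone, TNF with TNC, TNC alone, TNC with TNF, both, interaction). The cause of these differences was not tested. Dim signals limit Agt, Agtr2 and Nr3c2, and the 8 pools carry no error. Fits of every probe set were chosen after seeing the data.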

Other observations

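Genes of the natriuretic peptide and cyclic GMP pathway, which relaxes smooth muscle and opposes angiotensin II, fell more often than they rose in treated cells. Of 12 tested, 8 fell and 0 rose with TNF alone (20.3% of all genes fell), 6 fell and 0 rose with TNC alone (15.7% fell), and 9 fell and 1 rose with both factors (22.5% fell; median change -1.68, against -0.06 over all tested genes). Npr3, the clearance receptor, changed by -4.45 with both (SE 0.18, adjusted p = 5.05e-09, limma), Pde5a, which breaks down cyclic GMP, by -3.02 (SE 0.15), Gucy1b1, a subunit of soluble guanylate cyclase, by -2.46 (SE 0.28), Prkg1, the cyclic GMP-dependent kinase, by -1.45 (SE 0.09) and Npr2 by -0.82 (SE 0.07). In the aorta, 4 of 8 that reached the array median were at least 2-fold lower under CaAngII in the WT infrarenal pools (7.42% of all genes were) and 3 of 8 in the KO ones (6.8%), and none in the suprarenal pools (2.78% and 1.71%). Smooth muscle markers were lower in the same cells and infrarenal pools, and their part was not tested.

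Of 16 tested genes of other vasoactive receptors and ligands, 7 rose and 3 fell with TNF alone (14.3% of all tested genes rose and 20.3% fell). With TNC alone 8 rose and 3 fell (16.1% and 15.7%). S1pr3, a sphingosine 1-phosphate receptor, rose by 3.40 with TNF (SE 0.31, adjusted p = 5.78e-06), and its interaction was -2.81 (SE 0.41). Ece1, which makes endothelin, rose by 1.43 with TNC (SE 0.07, adjusted p = 5.36e-08) and its substrate gene Edn1 by 0.81 (SE 0.08). Lpar1 rose by 0.81 with TNF (SE 0.08) and changed by -0.84 with TNC (SE 0.07). Kng1 rose by 3.73 with TNC (SE 0.25), with near-identical copies in the mouse genome that leave its identity uncertain. In the aorta the serotonin receptor gene Htr2b was at least 2-fold higher in the infrarenal pools in all 4 pairs, with ratios of 1.60 to 3.39.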
